A study of Drosophila melanogaster with 8 samples.

Results

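Monoamine neurotransmitters are made, packaged, taken back up and inactivated by a small set of enzymes and transporters. The 10 genes of this set described here were ple, Ddc, Tdc2, Tbh, Vmat, DAT, SerT, AANAT1, e and t. They were picked out by symbol from the 17518 named genes of the count table, and each of the 10 was present and passed the filter on low counts. The list was drawn up with the difference between starvation and food in these libraries already known. Their fold changes between conditions are therefore given as a description, without a test of their own, and whether a gene passed the threshold of the whole-table comparison is stated as a property of the gene.

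RNA was measured in heads of adult w1118 male flies that had been under starvation for 1 day (4 samples) or on food for 1 day (4 samples). The flies were 1 to 3 d old, and a sample came from a group of 30 flies. In the behavioural assays of the study, starvation meant plain agar and food meant agar with sucrose and yeast, and the medium of the sequenced flies was not described separately. The w1118 strain is a white-eyed laboratory stock, so the starved and the fed flies alike lacked a functional white gene, which encodes a pigment precursor transporter and whose loss is also known to alter amine content of the fly head. The white gene (w) had between 0 and 4 counts in any library. The heads were taken whole, and a lower count can therefore come from fewer cells of a type or from less RNA per cell, which cannot be told apart here.

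In the fly, tyrosine hydroxylase (ple) turns tyrosine into dopa, and dopa decarboxylase (Ddc) turns dopa into dopamine. The same decarboxylase makes serotonin, while tyramine and octopamine arise through a tyrosine decarboxylase (Tdc2) and tyramine beta hydroxylase (Tbh). Vesicles are filled by Vmat, and the plasma membrane transporters DAT and SerT remove dopamine and serotonin from the synapse. The fly does not rely on the oxidative breakdown used in mammals. It acetylates amines with AANAT1 or couples them to beta-alanine with ebony (e), and tan (t) reverses the coupling, which in the eye recycles histamine. Acetylated and beta-alanyl dopamine are also building blocks of the hardened cuticle, and ple and Ddc are active in epidermis as well as in neurons.

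Libraries held between 48541958 and 50814153 counts on named genes under starvation and between 47936038 and 53168449 on food. Starvation replicate 3 stood apart from the others. The 10 most abundant genes held 25.6% of all counts there, where 17.7% to 20.3% was the range elsewhere. Genes with a long exonic sequence were low in it: exonic length and the deviation of a gene from its condition mean had a Spearman correlation of -0.54 across genes, which are not independent replicates. For genes of the monoamine pathways whose call or direction changed without this library, the value without it is given below. It is also given for some of the other genes that the library moved, but not for all of them. Across the 12048 genes tested with edgeR's quasi-likelihood test, 16.7% were lower and 10% higher under starvation at a Benjamini-Hochberg adjusted p under 0.05, and 5.37% were lower and 0.930% higher when a 2-fold change was also asked.

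In starved heads ple, AANAT1 and e were much lower than in fed heads. Each was lower by more than 2-fold, and the other 7 genes did not pass the threshold in either direction. In counts, 3 of the 10 genes were called lower, also at 2-fold, and 0 were called higher. The shares over all genes tested were 16.7% lower, or 5.37% at 2-fold, and 10% higher, and nothing is read from the comparison because the list was chosen on this contrast. At an unadjusted p under 0.05 the 10 genes held 4 lower and 1 higher, beside 21.5% lower and 15.5% higher over all genes. DESeq2 called 3 lower and 1 higher, beside 15.8% and 11.5% of the 13117 genes to which it gave an adjusted p. By limma-voom 3 were lower and 0 higher, beside 16.8% and 9.72%. In the same libraries all 6 glia markers and all 6 hemocyte markers were lower too, and their values are set beside those of ple, AANAT1 and e further on. The median log2 fold change of the 10 genes was -0.09, beside -0.01 over all genes tested. The enzyme of ple opens dopamine synthesis, and those of AANAT1 and e act on finished amines.

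**Figure D1:**
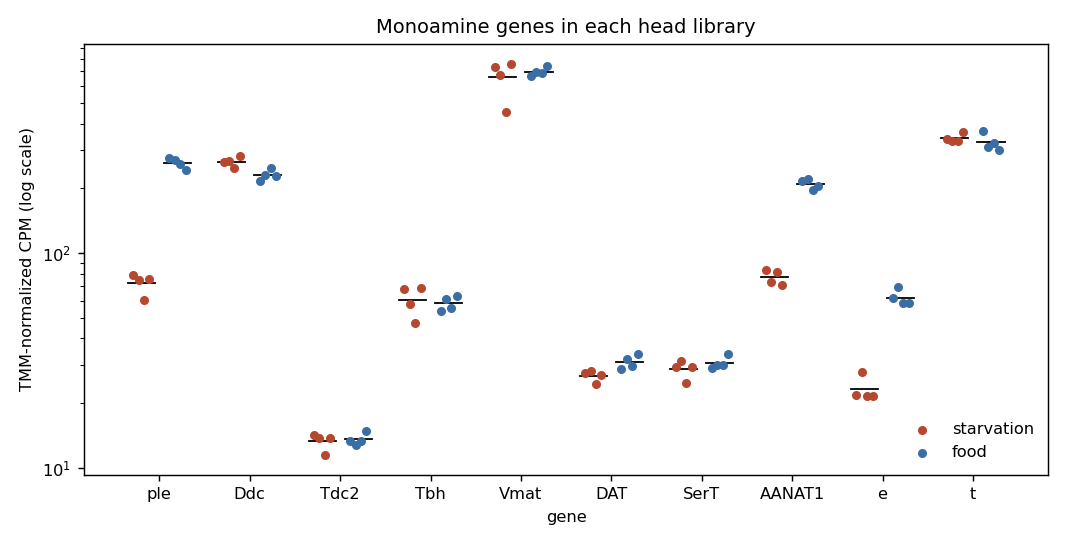
Normalized level (TMM-normalized CPM, log scale) of the 10 monoamine genes in each of the 4 starvation and 4 food libraries, with the mean of each condition as a black line. The starvation and food points are well apart for ple, AANAT1 and e, and they lie at similar heights for the other genes, with starvation replicate 3 as the low point of Vmat at 452.8 CPM.

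Among the enzymes of synthesis, ple stood out. The gene lies on chromosome 3L between positions 6713356 and 6719525 (Drosophila genome, release 6), with 3806 exonic bases. Its level was 79.0, 74.8, 60.5 and 75.8 CPM in the starvation libraries 1 to 4, against 275, 269.8, 258 and 243 CPM in the food libraries 1 to 4. The highest starved value was far below the lowest fed value. Starved heads held 27.7% of the fed level, a log2 fold change of -1.85 with a standard error (SE) of 0.10 and a 95% confidence interval of -2.07 to -1.63. Only 1.85% of all genes tested had an absolute log2 fold change as large. Without starvation replicate 3 it was -1.77. The gene is known to give separate neuronal and epidermal transcripts, and RefSeq lists 3 transcripts at these coordinates. The gene count does not separate them.

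Ddc, the next enzyme of the same chain, did not follow ple. It lies on 2L from 19116483 to 19120306. Its level was 264, 268, 249.3 and 281 CPM under starvation, against 217, 229.6, 249.4 and 228 CPM on food. Only starvation replicate 3 and food replicate 3 kept the conditions from separating, and those values were nearly equal. On the log2 scale the change was 0.20 (SE 0.08, interval of 0.02 to 0.38) and did not pass the adjusted threshold. Without starvation replicate 3 it was 0.23 (SE 0.06) and passed. It passed in 5 of 17 alternatives in all.

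The genes of the tyramine and octopamine branch were close to their fed level. Tdc2, the neuronal tyrosine decarboxylase on 2R from 6684745 to 6689974, had 14.2, 13.8, 11.4 and 13.8 CPM under starvation, against 13.3, 12.7, 13.3 and 14.9 CPM on food. Tbh, which turns tyramine into octopamine and lies on X from 7995697 to 8027394, had 67.8, 58.0, 47.3 and 68.8 CPM under starvation, against 53.6, 60.7, 55.3 and 63.1 CPM on food. The conditions overlapped for Tdc2 and for Tbh, and starvation replicate 3 was the lowest of all 8 libraries for each. The log2 fold changes were -0.03 for Tdc2 (interval of -0.23 to 0.18) and 0.06 for Tbh (interval of -0.20 to 0.31). Without starvation replicate 3 they were 0.04 and 0.16, and neither passed.

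None of the transport genes passed the threshold. Vmat, the vesicular transporter shared by the monoamines, lies on 2R from 13513132 to 13534251 and has 8134 exonic bases, the longest of the 10 genes. It had 733, 675, 452.8 and 760.5 CPM under starvation, against 668, 698, 685 and 737 CPM on food. Starvation replicate 3 alone lay far below the rest, and replicates 1 and 4 had levels near the highest fed library. Its log2 fold change was -0.09 (interval of -0.41 to 0.23), and it was 0.05 without starvation replicate 3. With an SE of 0.15, Vmat had the widest error of the 10 genes.

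DAT, the dopamine transporter, lies on 2R from 16558567 to 16565238. It had 27.6, 28.1, 24.5 and 27.0 CPM under starvation, against 28.9, 32.2, 29.6 and 33.9 CPM on food. Every starved library was below every fed library, by a small margin. Its change of -0.22 on the log2 scale (SE 0.08, interval of -0.39 to -0.05) did not pass the adjusted threshold. Libraries of the conditions did not overlap, with starvation lower, for 4 of the 10 genes (ple, AANAT1, e and DAT), and for 18.6% of all genes tested. The reverse held for 0 of the 10 and for 12.6% of all genes tested.

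SerT, the serotonin transporter on 2R from 24404595 to 24411074, had 29.4, 31.4, 24.9 and 29.5 CPM under starvation, against 29.0, 29.9, 30.2 and 33.7 CPM on food. The conditions overlapped. SerT differed by -0.09 on the log2 scale (interval of -0.28 to 0.10), and it was -0.03 without starvation replicate 3.

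The genes of inactivation split. AANAT1, listed by RefSeq under the name speck, lies on 2R from 24139563 to 24157762 and encodes the N-acetyltransferase of arylalkylamines. It had 82.8, 73.2, 81.1 and 70.9 CPM under starvation, against 216, 221, 197 and 205 CPM on food. Starved values were all below the fed ones and varied little. What remained was 36.8% of the fed level, a log2 fold change of -1.44 (SE 0.08, interval of -1.63 to -1.26). An absolute change as large was found for 3.34% of all genes tested.

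The ebony gene (e), on 3R from 21229839 to 21237177, encodes the synthase that joins beta-alanine to dopamine and histamine. It had 21.9, 27.8, 21.7 and 21.6 CPM under starvation, against 61.6, 69.5, 58.2 and 58.6 CPM on food. Starvation replicate 2 was above the other starved libraries and still far below any fed one. At 37.5% of the fed level, its log2 fold change was -1.41 (SE 0.10, interval of -1.64 to -1.19). Over 17 alternatives it lay between -1.51 and -1.30.

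The tan gene (t), on X from 9217655 to 9223257, encodes the hydrolase that undoes the reaction of ebony. It had 340, 332, 333 and 365 CPM under starvation, against 368, 312, 325 and 301 CPM on food. The conditions overlapped. With a log2 fold change of 0.07 (interval of -0.13 to 0.26), tan stayed near its fed level where ebony, which works in the opposite direction, did not.

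**Figure D2:**
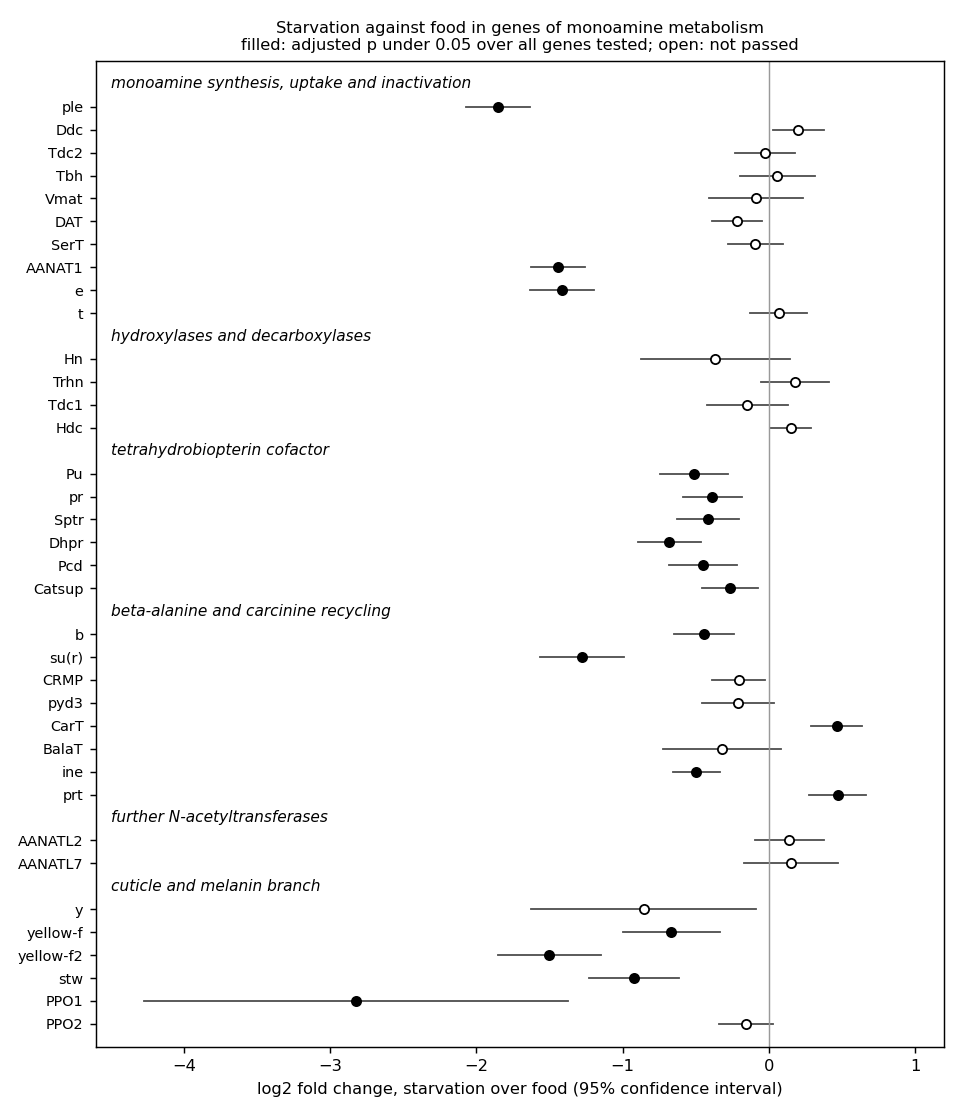
Log2 fold change (starvation over food) with its 95% confidence interval for the 10 monoamine genes at the top and for 26 further genes of the same pathways below, grouped by role. Filled points passed the adjusted threshold, and they include ple, AANAT1, e and all 6 genes of the tetrahydrobiopterin group.

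Ratios between genes of the same library do not depend on how libraries are scaled to each other. The ratio of Ddc to ple counts was 3.34, 3.58, 4.12 and 3.71 in the starvation libraries, against 0.788, 0.851, 0.967 and 0.939 in the food libraries. Reads of the decarboxylase gene thus outnumbered those of the hydroxylase gene in each starved library and were fewer in each fed library, before any correction for length. Per kb of exonic length, Ddc was above ple on food too, at 77.5 to 89.2 CPM against 63.7 to 72.3 CPM. The mean log2 ratio was 2.06 higher under starvation. The ratio of e to t counts was 0.0644, 0.0837, 0.0651 and 0.0593 under starvation, against 0.167, 0.222, 0.179 and 0.195 on food, a log2 difference of -1.49. The ratio of AANAT1 to Ddc was 0.314, 0.273, 0.325 and 0.252 under starvation, against 0.995, 0.962, 0.788 and 0.899 on food, a log2 difference of -1.65. In these 3 ratios the conditions did not overlap.

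Ratios among the transporters behaved otherwise. The ratio of DAT to Vmat ranged from 0.0355 to 0.0541 under starvation and from 0.0432 to 0.0461 on food, with log2 means that differed by -0.10. The ratio of SerT to Vmat ranged from 0.0388 to 0.055 under starvation and from 0.0429 to 0.0456 on food, with a log2 difference of 0.02. The starved range enclosed the fed range in each case, and its upper end was starvation replicate 3, where Vmat was low.

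**Figure D3:**
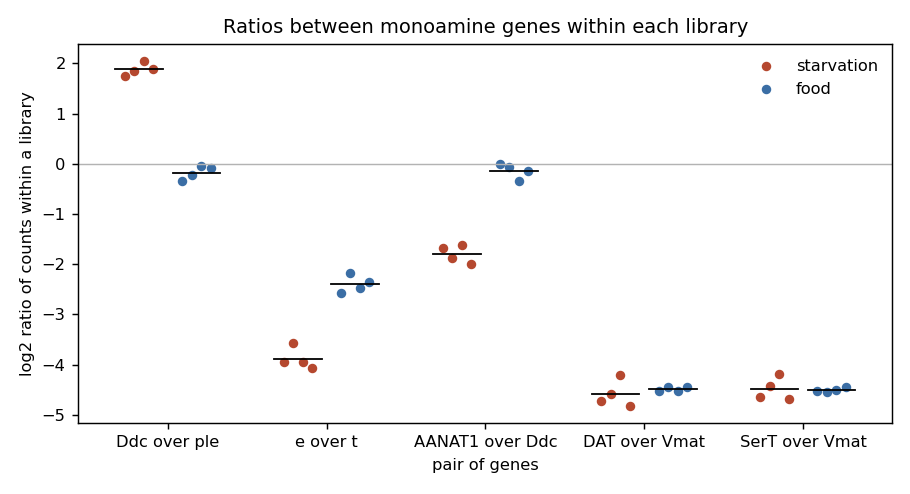
Log2 ratio of counts for 5 pairs of monoamine genes within each library, starvation beside food, with the mean as a black line. Ddc over ple, e over t and AANAT1 over Ddc separate the conditions, and the ratios of DAT and SerT to Vmat overlap.

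Levels between genes were compared as CPM per kb of exonic length. The highest of the 10 in each condition was t, at 173 ± 7.71 under starvation and 165 ± 14.98 on food (SD, n = 4 each). Tdc2, which marks a small number of neurons, was the lowest, at 5.78 ± 0.55 under starvation and 5.88 ± 0.40 on food. AANAT1 held rank 4 under starvation, at 40.8 ± 3.09, and rank 2 on food, at 111 ± 5.83. The e gene held rank 9 under starvation, at 7.397 ± 0.96, and rank 6 on food, at 19.7 ± 1.66. In fed heads it lay above Tbh, DAT and SerT, and in starved heads it overlapped DAT and SerT.

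The gene ple held rank 5 in each condition, at 19.1 ± 2.16 under starvation and 68.7 ± 3.79 on food, in the same unit. Ddc, at 94.9 ± 4.69 under starvation and 82.6 ± 4.85 on food, and Vmat, at 80.6 ± 17.2 under starvation and 85.7 ± 3.63 on food, shared neighbouring places. Some neighbours in this order had overlapping libraries. Under starvation these were Ddc and Vmat, ple and Tbh, DAT and SerT, and SerT and e. On food only Vmat and Ddc overlapped. These values use 1 length per gene and do not separate its transcripts.

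**Figure D4:**
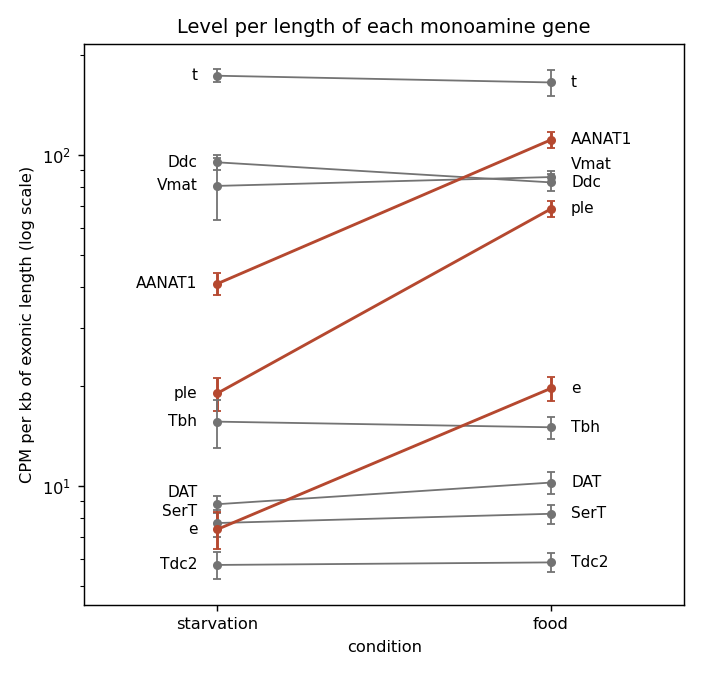
Mean level per length (CPM per kb of exonic sequence, log scale, bars ± SD, n = 4) of the 10 genes, starvation at the left and food at the right. AANAT1, ple and e, in colour, are at 40.8, 19.1 and 7.397 under starvation and at 111, 68.7 and 19.7 on food, and the grey lines of the other genes are nearly level.

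Starvation replicate 3 held the lowest starved value of 7 of the 10 genes, the exceptions being AANAT1, e and t. The shortfall was greatest for Vmat, whose level in that library was 0.68 below the mean of the other starved libraries on the log2 scale. Tbh was 0.45 lower, ple 0.34 lower and Tdc2 0.29 lower in the same measure. AANAT1, with 1887 exonic bases the shortest of the set, was 0.10 higher instead. With a trend in exonic length taken out of every library, ple was at -1.84, AANAT1 at -1.43 and e at -1.41. The same setting brought DAT (-0.21) and Ddc (0.21) past the threshold of the whole-table test.

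**Figure D5:**
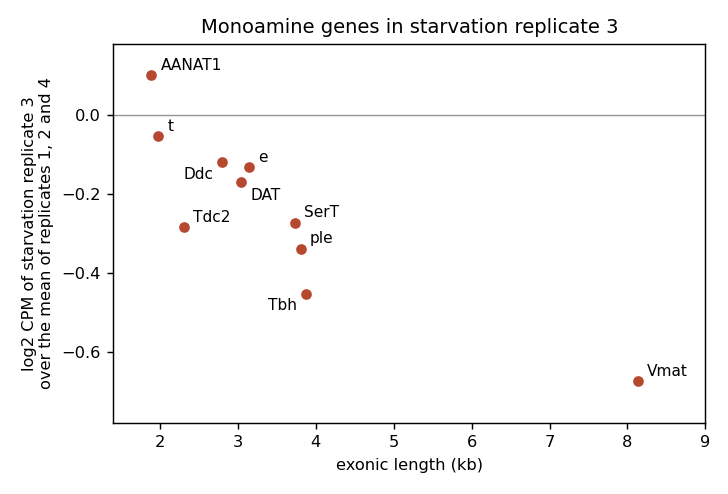
Level of each monoamine gene in starvation replicate 3, as log2 CPM over the mean of the other 3 starvation libraries, against exonic length in kb. Vmat, with 8134 exonic bases, lies lowest at -0.68, and AANAT1, with 1887, is the only gene above 0.

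A further 30 genes of the same pathways were listed by function, and 26 of them had enough counts to be tested. This list too was drawn up with earlier results of these data known. Its counts, and those of its groups, are therefore a description, and nothing is read from their comparison with all genes. Of the 26, 13 were lower and 2 higher at an adjusted p under 0.05, beside 16.7% and 10% of all genes tested. Their median log2 fold change was -0.38, beside -0.01 over all genes. At 2-fold, 3 were lower and 0 higher, beside 5.37% and 0.930% of all genes. At an unadjusted p under 0.05, 15 were lower and 3 higher, beside 21.5% and 15.5%. DESeq2 called 12 lower and 3 higher at an adjusted p under 0.05, beside 15.8% and 11.5%. The same shares apply to the counts of each group below.

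Tetrahydrobiopterin is the cofactor that tyrosine, phenylalanine and tryptophan hydroxylases need, and the same pteridine pathway makes red eye pigments. All 6 genes listed were lower under starvation in edgeR's quasi-likelihood test, with log2 fold changes from -0.68 to -0.26 and none at 2-fold. Over all genes tested, 16.7% were lower, or 5.37% at 2-fold. Pu, the GTP cyclohydrolase that opens the pathway, had 195, 185, 187 and 175 CPM under starvation, against 261, 283, 215.5 and 299 CPM on food, or -0.51 on the log2 scale (SE 0.11) with an adjusted p of 0.0042. The conditions did not overlap, and food replicate 3 was the lowest fed library.

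Dhpr, the reductase that regenerates the cofactor, had 25.5, 26.4, 34.4 and 28.1 CPM under starvation, against 47.6, 45.0, 48.01 and 42.5 CPM on food. It was the most strongly lowered of the group, at -0.68 (SE 0.10, adjusted p = 4.6e-04 in the same test). The synthase pr (-0.39, or -0.49 without starvation replicate 3), the reductase Sptr (-0.42) and the dehydratase Pcd (-0.45) lay between. Catsup, a zinc transporter known to restrain tyrosine hydroxylase, was the weakest at -0.26 and lost its call in 12 of 17 alternatives. Without starvation replicate 1, pr (-0.32, adjusted p = 0.0691), Sptr (-0.34, 0.0511), Pcd (-0.40, 0.0563) and Catsup (-0.22, 0.171) did not pass. Without starvation replicate 4 this held for pr (-0.33, 0.0656), Pcd (-0.38, 0.0584) and Catsup (-0.22, 0.170). Without starvation replicate 3 all 6 genes passed in the same test. There Dhpr was at -0.78 (adjusted p = 1.0e-05), Pcd at -0.57 (5.6e-05) and pr had an adjusted p of 3.2e-05. Pu was at -0.52 (0.0034), Sptr at -0.48 (0.0017) and Catsup at -0.30 (0.0143). DESeq2 and limma-voom each called 5 of the 6 lower, beside 15.8% and 16.8% over all genes.

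Other hydroxylases and decarboxylases were not called. Of the 4 genes listed, 0 passed the adjusted threshold by edgeR, with 1 at an unadjusted p under 0.05 and 1 called by DESeq2, each time Hdc. Trhn, the neuronal tryptophan hydroxylase that opens serotonin synthesis, had 20.8, 24.6, 23.7 and 27.0 CPM under starvation, against 19.5, 19.5, 24.9 and 21.1 CPM on food, with a 95% confidence interval of its log2 fold change from -0.05 to 0.41. Hdc, which makes histamine in photoreceptors, had 77.0, 82.4, 74.8 and 80.7 CPM under starvation, against 70.6, 71.7, 72.8 and 69.1 CPM on food. Its starved libraries were all above the fed ones, and the log2 fold change of 0.15 (adjusted p = 0.12) did not pass, whereas it did without starvation replicate 3 (0.17, adjusted p = 0.0157). Hn, the phenylalanine hydroxylase, varied widely, from 113 to 227 CPM under starvation and from 169 to 281 CPM on food. Its log2 fold change was -0.37 (interval of -0.87 to 0.14), and it was -0.53 to -0.18 over the fits without 1 library. Tdc1, the non-neuronal tyrosine decarboxylase, had a log2 fold change of -0.15 (interval of -0.42 to 0.13).

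The beta-alanine group moved in each direction. Beta-alanine, the partner of dopamine and histamine in the ebony reaction, comes from aspartate through black (b) and from uracil breakdown through su(r), CRMP and pyd3. The dehydrogenase gene su(r) had 20.6, 27.1, 23.6 and 18.7 CPM under starvation, against 59.9, 55.5, 59.1 and 43.7 CPM on food, or -1.28 on the log2 scale (SE 0.13; adjusted p = 4.7e-05 in edgeR's quasi-likelihood test). It was the only gene of this group past 2-fold. The decarboxylase gene b was lower by less, with a log2 fold change of -0.44 (adjusted p = 0.0046 in the same test). CRMP (-0.21) and pyd3 (-0.21) did not pass. Each passed in 2 of 17 alternatives. For CRMP these were the fit without starvation replicate 1 (-0.25, adjusted p = 0.0312) and the one with the length trend taken out (-0.20, adjusted p = 0.0301). For pyd3 they were the fit without starvation replicate 3 (-0.30, adjusted p = 0.0303) and the one with the replicate number as a block (-0.22, adjusted p = 0.0495).

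The transporters listed with this group were not lowered together. CarT, which brings carcinine back into photoreceptors, had 110, 116, 114 and 129 CPM under starvation, against 89.2, 89.2, 82.3 and 79.5 CPM on food. It was higher in every starved library, by 0.46 on the log2 scale (SE 0.08), at an adjusted p of 0.0014 by edgeR. The putative vesicular transporter prt, whose place in the recycling loop was not examined, was higher, at 0.47 (adjusted p = 0.0024 in the same test). In that test ine, a transporter of the neurotransmitter transporter family, was lower, at -0.50 (adjusted p = 5.7e-04). BalaT, the beta-alanine transporter, was scarce, between 2.41 and 4.27 CPM under starvation and between 3.40 and 4.45 CPM on food, and passed only without starvation replicate 3 (-0.48, adjusted p = 0.0339) among all alternatives.

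Of the acetyltransferases related to AANAT1, AANATL2 (0.14, interval of -0.10 to 0.38) and AANATL7 (0.15, interval of -0.17 to 0.47) had enough counts to be tested. Without starvation replicate 3 they were at 0.085 and 0.052. Neither passed, also at an unadjusted p under 0.05 and by DESeq2 or limma-voom (0 of 2 each time). AANATL3, AANATL4, AANATL5 and AANATL6 had at most 6 counts in a starvation library and at most 2 in a food library, and were not tested.

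In the cuticle and melanin branch, 4 of 6 genes were lower and 0 higher. At an unadjusted p under 0.05, 5 were lower and 0 higher, and DESeq2 called 4 and 0. Over all genes the shares were 16.7% lower and 10% higher, 21.5% and 15.5% unadjusted, and 15.8% and 11.5% by DESeq2. The enzyme gene yellow-f2, which acts on dopachrome, had 11.0, 12.6, 13.7 and 8.82 CPM under starvation, against 32.0, 31.6, 41.0 and 25.96 CPM on food, with no overlap. Its log2 fold change was -1.502 (SE 0.16, adjusted p = 5.5e-05 in edgeR's quasi-likelihood test). Its neighbour yellow-f was lower by 0.67 on the log2 scale (adjusted p = 0.0072), and stw, the laccase of cuticle hardening, by 0.92 (adjusted p = 6.1e-04), in the same test. PPO1, a phenoloxidase of crystal cells in the blood, had 0.641, 3.05, 0.294 and 0.489 CPM under starvation, against 9.42, 12.6, 7.34 and 2.51 CPM on food. Starvation replicate 2 lay inside the fed range, and the log2 fold change of -2.83 became -4.06 without it. PPO2 (-0.16) and y (-0.86, under 1 CPM in every library) did not pass.

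The heads were checked for the cells that carry these genes. All 6 neuron markers (elav, nSyb, brp, Syt1, para and Syn) were present, at 228 CPM on average or above, with log2 fold changes from -0.15 to 0.05. None passed in edgeR's quasi-likelihood test, with 0 at an unadjusted p under 0.05 and 0 by DESeq2. Starvation replicate 3 was the lowest library for all 6. There brp had 347 CPM, against 660 to 762 in the other starved libraries, and para 269 CPM, against 583 to 638. Fold changes without that library are not given for the markers. Photoreceptor markers were abundant, with 2 of 6 higher (trp and ninaC), where DESeq2 called 3 and limma-voom 0, and 4 were higher at an unadjusted p under 0.05. All 6 glia markers (repo, nrv2, Gs2, alrm, moody and Gat) were lower, with log2 fold changes from -0.87 to -0.32, and they summed to between 1386 and 1703 CPM under starvation and between 2363 and 2683 CPM on food. All 6 hemocyte markers (Hml, NimC1, eater, He, Pxn and srp, of which Pxn and srp overlap a non-coding RNA gene) were lower too, from -2.93 to -0.37, with sums of 110 to 179 CPM under starvation and 231 to 368 CPM on food. Beside these marker counts, 16.7% of all genes tested were lower and 10% higher at an adjusted p under 0.05 by edgeR. None of the marker lists had a gene at 0 in all libraries.

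Ebony is known from glia, and AANAT1 has been found in astrocytes, so the glia values were set beside theirs, a comparison that was added once these data had been examined. The log2 fold changes of e (-1.41) and AANAT1 (-1.44) were larger in size than that of any of the 6 glia markers. Relative to the summed glia markers of the same library, e was lower under starvation by 0.69 on the log2 scale, AANAT1 by 0.72 and ple by 1.13, and the conditions did not overlap for any of the 3. Relative to the summed hemocyte markers, ple was lower by 0.77 without overlap, whereas e (-0.33) and AANAT1 (-0.36) overlapped. That sum is carried by Pxn, which made up 63.0% to 85.3% of it under starvation and 38.7% to 57.8% on food and was lower by only 0.37. The other 5 hemocyte markers together held 20 to 66.3 CPM under starvation and 97.3 to 226 CPM on food. Relative to them the log2 differences had the other sign, at 0.38 for ple, 0.79 for AANAT1 and 0.82 for e, with overlap for each of the 3. Relative to glia markers without Gs2, the most abundant of these, the differences were -1.19 for ple, -0.78 for AANAT1 and -0.755 for e. The sign of the ratios therefore differed between glia markers and hemocyte markers without Pxn. Relative to the summed neuron markers the log2 differences were -1.36 for e, -1.38 for AANAT1 and -1.79 for ple, without overlap. The 5 pterin enzymes together were lower by 0.51 on the log2 scale in CPM. They were higher by 0.22 relative to glia markers and by 0.58 relative to hemocyte markers, and lower by 0.44 relative to neuron markers, with overlap in each case. For neuron markers the overlap rested on starvation replicate 3, with a log2 ratio of -3.515 against -3.692 to -3.567 on food. That library, lowest for all 6 neuron markers, also held the highest starved ratio to them for e, AANAT1 and ple. Sums of a few markers in whole heads do not give the number of cells of a type. The part of glia or hemocytes in the values of ple, AANAT1, e and the pterin genes was not tested beyond these ratios.

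Epidermal and cuticular markers did not move one way. Of the 5 tested (grh, Cpr72Ec, resilin, stw and vvl), 3 were lower and 1 higher, and stw is also in the cuticle branch above. Cpr72Ec, a cuticle protein gene, was higher by 1.76 on the log2 scale. The sum of the list was 376 to 501 CPM under starvation and 237 to 259 CPM on food. The higher starved sum came from Cpr72Ec alone, at 256 to 420 CPM under starvation and 84.3 to 103 CPM on food. The 3 lower genes were grh (-0.34), stw (-0.92) and vvl (-0.60), and resilin did not pass. Cpr49Ah had too few counts to be tested. Of the fat body markers, 3 of 6 were lower (Lsp2, apolpp and FASN1) and bmm, a lipase gene, was higher. Desat1 and Fbp1 did not pass. The list summed to 1700 to 2437 CPM under starvation and 7220 to 11530 CPM on food. The fed sum was carried by Lsp2, at a mean of 3905 CPM on food and 14.9 under starvation, and apolpp, at 3233 and 463 CPM. Of the muscle markers 0 of 6 passed, with 1 at an unadjusted p under 0.05 and 0 by DESeq2. The part of epidermis, fat body or muscle in the values of ple, AANAT1 and e was not tested.

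The gene of the 10 with the largest change, ple, was compared with every other gene of at least 1 CPM over the 8 libraries. The closest patterns, by Pearson correlation of log2 CPM across libraries, were those of GlyP (0.996), Duox (0.996) and Hsc70-5 (0.996), which encode glycogen phosphorylase, a dual oxidase and a mitochondrial chaperone. AANAT1 stood at rank 66 (0.985) and e at rank 98 (0.983) among the 10421 genes compared, of which 506 were above 0.95. DAT (0.80) and SerT (0.46) followed among the other monoamine genes, and Ddc was the most opposed, at -0.80. The points share the 8 libraries and the split between the conditions, so the values are a description.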

How the data were processed

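Poly(A)+ libraries from the heads of 4 starvation and 4 food samples were sequenced on 2 flow cells. The authors mapped the reads with STAR 2.6.1b to the Drosophila genome (release 6.22), merged the runs of a sample with SAMtools and counted reads per gene with ASpli. The deposited values are raw counts per gene, without normalization, and the strand setting is not given in the sources used here. Of the columns, 0 belonged to samples without a condition. Conditions were taken from the sample titles, and replicates were separate biological samples per the methods.

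One row without a gene name (1 row, 0.0042% to 0.0054% of the counts of a library) was left out. Counts were normalized with TMM, filtered with filterByExpr (12048 genes kept) and tested with edgeR 4.0.16 (R 4.3.3) by quasi-likelihood, with Benjamini-Hochberg adjustment over all genes tested. A gene passed at an adjusted p under 0.05, and the 2-fold threshold of the study was counted separately. Standard errors were derived from the F statistic. The common biological coefficient of variation was 0.138. CPM are TMM-normalized, and at these depths counting error is small beside the spread between replicates for most genes described. CPM per kb used the exonic length in the table.

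The 10 genes and all gene lists were chosen with earlier results of these data known. The genes named are the 10, the 30 further genes of the pathways, w, the marker lists and the 3 genes most like the one that changed most. All 40 pathway genes matched RefSeq by coordinates together with a symbol or synonym. For 38 the symbol in the table was the RefSeq symbol, and the others were AANAT1 (speck in RefSeq) and Trhn (Trh in the table). Alternatives were RLE and upper-quartile normalization, DESeq2 1.42.0, limma-voom (limma 3.58.1), no filter, a stricter filter at a mean of 10 counts, a replicate block, leaving out the 10 most abundant genes, taking out a trend with exonic length, and leaving out each library. Ratios were also taken per exonic base, which left their differences unchanged. Ratios to marker sums, with and without the most abundant marker, were added after the data were seen. Splicing, GC content and sequences were not analysed here.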

Additional observations from a re-analysis of the deposited data

Results flagged for a closer look

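For each tested gene of the pathways, the 4 values of each condition were searched for 1 library set apart from the rest, by the size of its gap to the nearest value over the whole range (Dixon's 95% limit). Of 72 sets of 4 values, 6 stood out, where chance gives about 1 in 20, or 3.6. Single cases therefore carry little weight.

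In starvation replicate 3, Tdc2 had 11.43 CPM, where its other starved values were 13.8 to 14.2, and the pterin synthase gene pr was at 43.39 CPM, against 33.2 to 34.1. In starvation replicate 2, e was at 27.78 CPM, against 21.6 to 21.9, Tdc1 was at 7.758 CPM, against 5.97 to 6.25, and PPO1 was at 3.046 CPM, against 0.294 to 0.641. In food replicate 1, prt had 18.06 CPM, against 21.6 to 22.0. Starvation replicate 3 is also the library with low counts on genes of long exonic sequence, and the part of that trend in these values was not tested.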

How the results depend on the processing

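In all 17 alternative fits run for each, ple (-1.88 to -1.74), AANAT1 (-1.47 to -1.33) and e (-1.51 to -1.30) stayed lower by more than 2-fold and past the threshold. Over the 36 genes tested, 570 of 612 values kept their direction and side of the threshold, 20 lost the call, 16 gained it and 6 took the other sign. The 6 were Tdc2 (0.089 with upper-quartile normalization, and -0.053 to 0.043 over the fits without 1 library, positive without starvation replicate 3 or, at 0.022, food replicate 4), Vmat (0.022 with upper-quartile normalization, and -0.15 to 0.054 without 1 library, positive only without starvation replicate 3) and SerT (0.021 with upper-quartile normalization), none of them called in any setting. Upper-quartile normalization raised the median of all genes to 0.10 and that of the 10 genes to 0.022, called 1543 genes lower and 2292 higher, and lost the calls of pr, Sptr, Pcd and Catsup. Of the 10 genes, 1 was called higher (Ddc) with upper-quartile normalization, DESeq2, the 10 most abundant genes left out, or the length trend taken out, which gave 1937 higher genes over the table. Leaving out a library gave 760 to 1947 higher genes over the table (760 without food replicate 2, 776 without food replicate 1 and 1947 without starvation replicate 3), 0 to 1 of the 10 genes higher and a median of the 10 from -0.12 to 0.0078. Set against glia and hemocyte markers, the pterin enzymes took the other sign (0.22 and 0.58, or 0.159 without Gs2 and 1.733 without Pxn). Set against hemocyte markers without Pxn, so did ple (0.382), AANAT1 (0.793) and e (0.819).

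Deviations of same-numbered libraries had weak positive correlations across genes, at 0.02, 0.06, 0.12 and 0.17 for replicates 1 to 4. Pairs of unlike number had -0.127 to 0.083. Replicates 2, 3 and 4 correlated best with their own number, and replicate 1 did not. The sources do not say that a number marks a shared batch, so the numbers were not taken as pairs. Pairing was not tested. A replicate block in the fit made the SE of e smaller (0.070 against 0.100) and that of Ddc larger (0.090 against 0.080). With a replicate block, 2094 genes were lower and 1118 higher, 3 of the 10 genes were lower, and Hn (-0.41, adjusted p = 0.0491 in edgeR's quasi-likelihood test) and pyd3 (-0.22, adjusted p = 0.0495) passed in addition. Genes under about 1 CPM, such as y, and the acetyltransferases with a few counts are limited by depth.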
